A study of Arabidopsis thaliana with 6 samples.

Results

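Class III peroxidases are secreted plant heme enzymes encoded by a large gene family. Of 60 listed loci of this family in Arabidopsis thaliana, 43 were read by a probe set that the platform annotation assigns to that gene alone. The loci were taken from a fixed list, in which AT1G34510, AT4G26010, AT3G49960, AT5G22410 and AT5G67400 are set apart as root hair members, and 3 of these 5 were among the 43 measured. A further 6 loci share 3 probe sets, and 11 are not in the annotation used here and were not analysed here, among them RCI3, PER4, PRXCA, PRXCB, PA2, PER64 and the root hair genes RHS18 (AT5G22410) and RHS19 (AT5G67400).

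Total RNA came from whole seedlings harvested after 8 days of growth on diluted Murashige and Skoog medium, and each of 6 samples was hybridised to 1 Affymetrix ATH1 array. One group was 3 biological replicates of actin2-5, a mutant allele of the actin gene ACT2 whose samples are titled wavy, and the other was 3 replicates of Columbia wild type. The labels give no ecotype for the mutant, and they do not say whether a replicate was 1 plant or a pool. No probe set is assigned to ACT2 in the annotation used here, and the genotype labels could not be checked on the mutated gene itself.

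Peroxidases of this class act in the cell wall with hydrogen peroxide as a substrate. They can oxidise monolignols and wall proteins such as extensins into cross-linked polymers, which stiffens the wall, and they can also produce hydroxyl radicals, which cleave wall polysaccharides and loosen it. Plasma membrane NADPH oxidases release the superoxide from which much of the peroxide forms, and in root hairs this chemistry accompanies tip growth. The actin cytoskeleton guides the vesicles that carry wall material and secreted enzymes to the growing tip.

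Values below are log2 expression values of the authors' RMA summary, so 1 unit is a doubling of signal, and changes are differences of means, actin2-5 minus wild type. A gene is called where limma's two-sided test, adjusted by Benjamini-Hochberg over all 22746 probe sets tested, gave an adjusted p under 0.05. By this rule 4 of the 43 peroxidase genes (9.3%) were called, against 3.3% of all probe sets. All 4 were higher in actin2-5, against 2.18% of all probe sets called higher, and 0 were lower, against 1.11% called lower. At an unadjusted p under 0.05 in either direction there were 14 of the 43 genes, against 15.3% of all probe sets. These were 7 in each direction, with the 4 called genes among the 7 higher. Lower calls, 1 to 3 of them, appeared in 7 of 15 alternative settings, and without wild-type replicate 1 there were 3 higher and 3 lower. The median change of the 43 genes was -0.06, beside -0.03 over all probe sets, and single genes ranged from -0.68 to 1.04. A change past 1.5-fold was measured in 5 peroxidase genes (11.6%), against 1.98% of all probe sets.

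**Figure D1:**
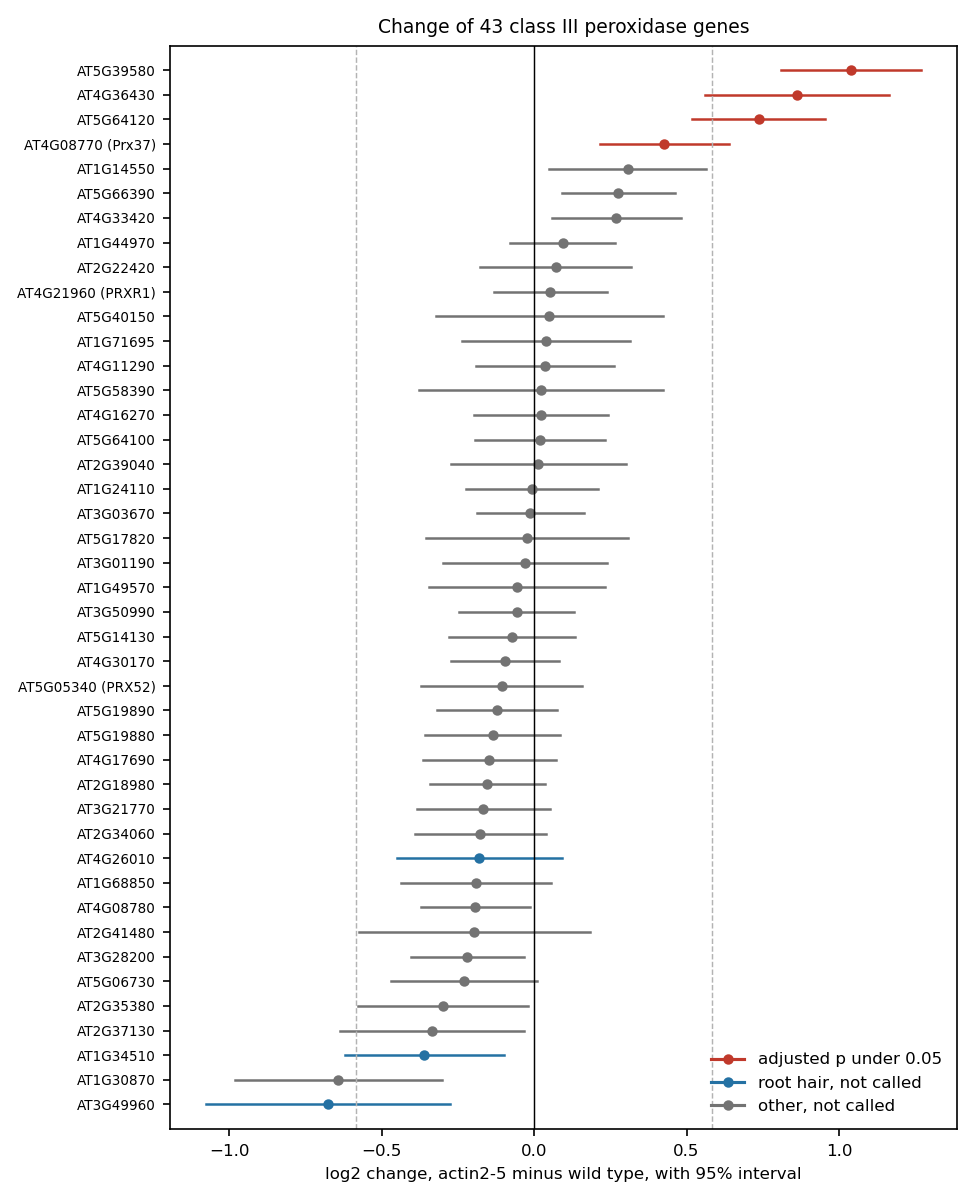
Change of the 43 measured peroxidase genes, as the log2 difference of actin2-5 minus wild type (points) with limma's 95% interval (lines), ordered by size. The dashed lines mark 1.5-fold, and the 4 called genes at the top lie between 0.43 and 1.04, while the 3 root hair genes lie between -0.68 and -0.18.

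AT5G39580 showed the largest change of the 43 and was the only one past 2-fold. It read 5.52, 5.35 and 5.45 on wild-type arrays 1, 2 and 3 and 6.30, 6.49 and 6.65 on actin2-5 arrays 1, 2 and 3. The gap between the lowest mutant array and the highest wild-type array was wider than the range within either group. The gene rose by 1.04 ± 0.10 (SE, n = 3 per group), or 2.06-fold, with a limma adjusted p of 0.000546.

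AT5G64120 (PRX71), a peroxidase linked to lignification and to wall stiffening that restrains cell growth, had a bright probe set in both genotypes. Wild-type arrays read 10.71, 10.86 and 10.83, and actin2-5 arrays read 11.36, 11.60 and 11.65. The groups did not overlap, and the lowest of the mutant values was on array 1. The rise was 0.74 ± 0.10, or 1.67-fold (limma adjusted p = 0.00277).

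AT4G36430 read 6.70, 6.36 and 6.28 in wild type and 7.41, 7.46 and 7.06 in actin2-5. Both groups spread more widely here than for the previous pair, with SDs of 0.22 in each, but they stayed apart. The rise was 0.86 ± 0.14, or 1.82-fold (limma adjusted p = 0.00681). It missed the threshold without actin2-5 replicate 2, at 0.79 ± 0.16 (limma adjusted p = 0.0513).

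AT4G08770 (Prx37), a peroxidase of vascular tissue whose overexpression dwarfs the plant, rose least of the called genes. Its wild-type arrays read 7.68, 7.69 and 7.81, and its actin2-5 arrays read 8.14, 8.30 and 8.02. The change was 0.43 ± 0.09, or 1.34-fold (limma adjusted p = 0.0377). The groups did not overlap, yet leaving out any 1 of the 6 arrays ended the call, with changes of 0.35 to 0.49.

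**Figure D2:**
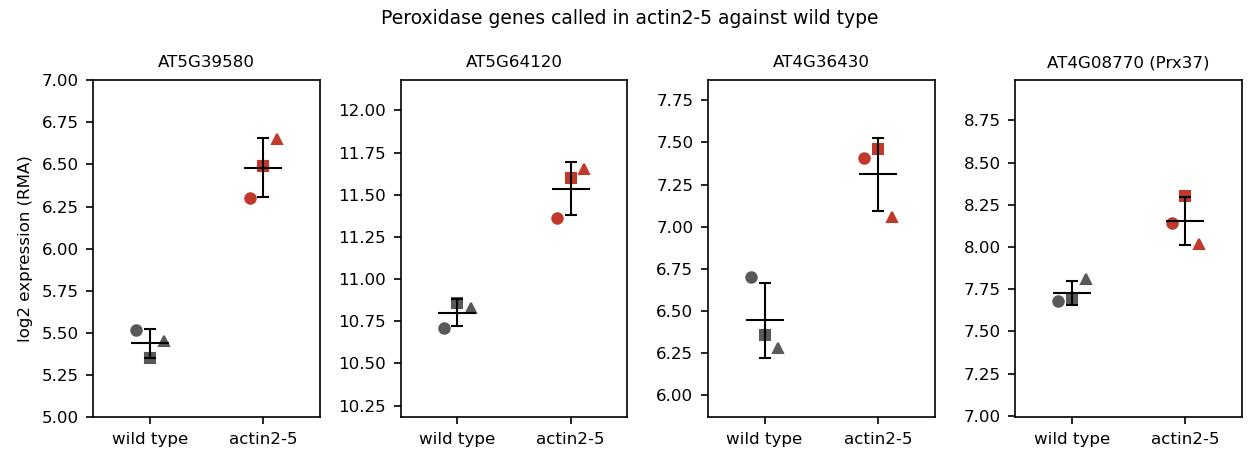
Log2 expression of the 4 called peroxidase genes on each array, with wild type in grey and actin2-5 in red, and bars for the mean and SD of 3 arrays. Circles, squares and triangles are replicates 1, 2 and 3, every panel spans 2 log2 units, and in each panel all red points lie above all grey points.

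The signal for 25S ribosomal RNA, read by a control probe set kept out of the test, differed between the mutant arrays. Mutant arrays 1, 2 and 3 read 10.63, 7.75 and 9.82, whereas the wild-type arrays lay between 8.13 and 8.21. With this signal as a covariate 283 probe sets were called in place of 750, and 3 of the 4 peroxidase genes were among them. AT5G39580 was then at 1.08 ± 0.14, AT4G36430 at 0.92 ± 0.18 and AT5G64120 at 0.81 ± 0.12 (limma adjusted p = 0.00585, 0.0447 and 0.0152), while Prx37 was at 0.51 ± 0.12 (adjusted p = 0.0937). Actin2-5 array 2 had the lowest 25S signal of the 6. On it all 4 genes were above each wild-type array, but so they were on actin2-5 arrays 1 and 3. That array by itself therefore does not test a link of these genes to the 25S signal. With actin2-5 arrays 1 and 3 left out, AT5G39580 alone of the 4 was called, at 1.05 ± 0.14 (adjusted p = 0.0334). In that fit the single mutant array was assumed to vary like wild type.

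No root hair peroxidase was called (0 of 3 in limma, against 3.3% of all probe sets), and all 3 means were lower in actin2-5. An unadjusted p under 0.05 was found for 2 of them, against 15.3% of all probe sets. AT3G49960 read 6.85, 7.67 and 7.08 in wild type and 6.65, 6.57 and 6.35 in actin2-5. The groups did not overlap, but wild-type array 2 stood well above the other wild-type arrays, and the SD was 0.42 in wild type against 0.16 in actin2-5. The change was -0.68 ± 0.18, with a 95% interval from -1.08 to -0.28 (limma adjusted p = 0.0798). It was called in 3 of 15 alternative settings, namely array weights (-0.63 ± 0.15, adjusted p = 0.0396), the replicate number as a block (-0.68 ± 0.15, adjusted p = 0.0303) and without wild-type replicate 1, the lowest of its group (-0.85 ± 0.17, adjusted p = 0.0266). Without wild-type replicate 2 the value was -0.44 ± 0.12 (adjusted p = 0.0908).

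AT1G34510 had a dim probe set, with a wild-type mean of 4.22 against a lower quartile of 4.55 over all probe sets. RMA can understate a change in so weak a signal, and how far it did so here was not tested. It read 4.01, 4.48 and 4.17 in wild type and 3.87, 3.92 and 3.79 in actin2-5, again with wild-type array 2 the highest. The groups did not overlap, and the change was -0.36 ± 0.12 (limma adjusted p = 0.158). Without wild-type replicate 2 it was -0.23 ± 0.09 (adjusted p = 0.269).

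AT4G26010, a bright probe set, read 8.87, 9.04 and 9.25 in wild type and 9.08, 8.79 and 8.75 in actin2-5. Here the groups overlapped, because mutant array 1 lay above the first 2 wild-type arrays. The change was -0.18 ± 0.12, with an interval from -0.45 to 0.09. That interval overlaps the one of AT3G49960, and a difference between these genes was not tested. In RNA from whole seedlings, fewer root hair cells and less RNA per root hair cell cannot be told apart.

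**Figure D3:**
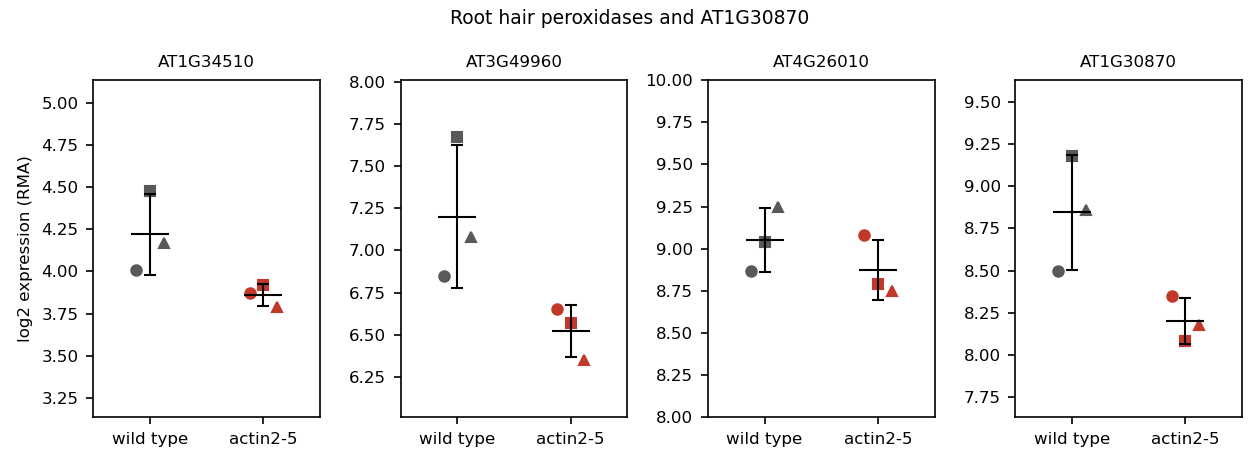
Log2 expression on each array of the 3 measured root hair peroxidases and of AT1G30870, drawn like the plot of the called genes, with 2 log2 units to a panel. Wild-type array 2 (square) is the highest grey point for AT1G34510, AT3G49960 and AT1G30870, and only AT4G26010 has overlapping groups.

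Other root hair genes of a fixed list gave a reference for these values. Of 17 listed genes 3 were measured, and 2 of them, the root hair expansin genes EXPA7 and EXPA18, fell by 0.86 ± 0.14 and 0.95 ± 0.15 (limma adjusted p = 0.00909 and 0.00636). Over all probe sets 1.11% were called lower. EXPA7 read 7.28, 7.69 and 7.92 in wild type and 6.85, 6.78 and 6.69 in actin2-5. EXPA7 missed the threshold without actin2-5 replicate 2 or 3 (adjusted p = 0.0545 and 0.0576), and with the 25S covariate both did (adjusted p = 0.0769 and 0.062). XTH26, which encodes a xyloglucan-modifying enzyme, was dim and at -0.15 ± 0.10. PYK10 and NAI2, listed as root markers, were at 0.09 ± 0.08 and -0.27 ± 0.11. Of these 0 of 2 were called, against 3.3% of all probe sets, and 1, NAI2, had an unadjusted p under 0.05, against 15.3%. Whether they read root tissue alone in whole seedlings was not tested. PYK10 lay between 13.28 and 13.37 in wild type and between 13.38 and 13.46 in actin2-5, and NAI2 between 10.12 and 10.47 and between 9.89 and 10.07. The part of root or root hair content in the peroxidase values was not tested.

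AT1G30870, which is not on the root hair list, had the smallest p among the uncalled peroxidase genes. It read 8.50, 9.18 and 8.86 in wild type and 8.35, 8.08 and 8.18 in actin2-5. All mutant values lay below all wild-type values, and the wild-type SD of 0.34 was the larger of the pair. The change of -0.64 ± 0.15 missed the threshold narrowly (limma adjusted p = 0.0518), and it passed in 7 of 15 alternative settings, such as repeated quantile normalization (adjusted p = 0.0404). It did not pass with the 25S covariate (-0.74 ± 0.19, adjusted p = 0.142). Without wild-type replicate 2, its highest array, the change was -0.48 ± 0.13 (adjusted p = 0.0944). Of the 2 uncalled genes past 1.5-fold it is one, and AT3G49960 is the other.

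Several further genes had an unadjusted p under 0.05 without being called. AT5G66390 (PRX72), which acts in lignification of the stem, read 9.28, 9.44 and 9.36 in wild type and 9.59, 9.62 and 9.70 in actin2-5. These groups were apart with little spread, but the change was small, at 0.28 ± 0.08 (limma adjusted p = 0.124). AT4G33420 was at 0.27 ± 0.10 and AT1G14550 at 0.31 ± 0.12, the latter with groups that overlapped. On the other side AT2G37130 was at -0.34 ± 0.14, AT2G35380 at -0.30 ± 0.13, AT3G28200 at -0.22 ± 0.08 and AT4G08780 at -0.19 ± 0.08. AT2G37130 was called without wild-type replicate 1, at -0.50 (adjusted p = 0.0347).

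The wild-type means of the 43 genes ran from 4.02 to 12.68. In wild type 16 of the 43 genes lay above the upper quartile of all probe set means (8.13), 11 between the median (6.44) and that quartile, 7 between the lower quartile and the median, and 9 below the lower quartile. Signals of different probe sets depend on their probes, so these classes describe how well each gene could be read and do not order transcript amounts. All 9 of the dim genes had a lower mean in actin2-5, with changes from -0.36 to -0.01, and 0 of them were called by limma, with 1, AT1G34510, at an unadjusted p under 0.05. Among all 5695 probe sets this dim, 39 (0.68%) were called, 322 had an unadjusted p under 0.05, and 3872 had a lower mean in actin2-5. Their median change was -0.04, beside -0.12 for the 9. With repeated quantile normalization the lower means did not all hold, and AT3G50990 was then at 0.0056. The lower quartiles of single arrays were 4.49 to 4.50 in actin2-5 and 4.51 to 4.58 in wild type.

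**Figure D4:**
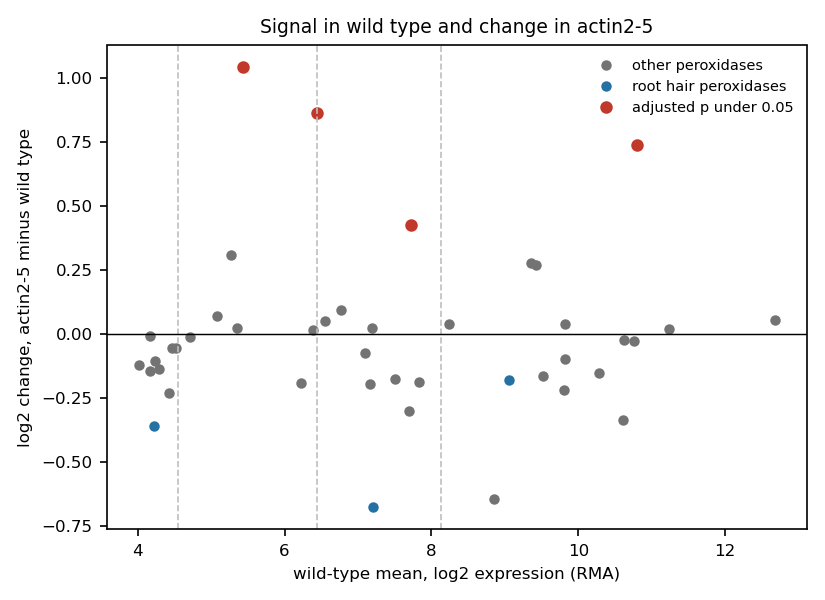
Wild-type mean on the log2 scale (horizontal) against the log2 change in actin2-5 (vertical) for the 43 peroxidase genes, with dashed lines at the lower quartile, median and upper quartile of all probe sets. The 4 called genes lie at wild-type means from 5.44 to 10.80, and the 9 genes left of the first dashed line all lie below 0.

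Among the 6 peroxidase genes with the brightest probe sets, AT5G64120 was the only one called. AT4G21960 (PRXR1) read 12.59, 12.72 and 12.73 in wild type and 12.79, 12.70 and 12.71 in actin2-5, a difference of 0.05 ± 0.08. AT5G64100 read 11.13, 11.19 and 11.38 in wild type and 11.16, 11.25 and 11.35 in actin2-5, a difference of 0.02 ± 0.10. For both the groups overlapped closely, and their intervals lay within 0.24 of 0 on either side.

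AT3G01190 read 10.53, 10.84 and 10.91 in wild type and 10.92, 10.63 and 10.64 in actin2-5, a difference of -0.03 ± 0.12. AT5G17820 read 10.24, 10.91 and 10.72 in wild type and 10.69, 10.51 and 10.60 in actin2-5, a difference of -0.02 ± 0.15. In both genes wild-type array 1 was the lowest of the 6, and the sign of the difference turned when single arrays were left out. AT2G37130 read 10.29, 10.90 and 10.64 in wild type and 10.24, 10.24 and 10.34 in actin2-5, so its mutant arrays lay close to wild-type array 1 and below the other pair.

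Peroxidases with an established role in other tissues were measured too. AT2G41480 (PRX25), linked to lignin formation, read 6.89, 7.61 and 6.97 in wild type and 7.06, 7.03 and 6.79 in actin2-5, a difference of -0.20 ± 0.17 that rests on wild-type array 2. PRX52, which acts in lignification of stem fibres, and PER36 (AT3G50990), which acts in the seed coat, were both below the lower quartile, at wild-type means of 4.23 and 4.52. Their differences were -0.11 ± 0.12 and -0.06 ± 0.09, and signals this weak say little about a change.

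Of the 39 uncalled genes, 35 had a 95% interval that lay within 1.5-fold in both directions. For 8 of the 35, whose probe sets lay below the lower quartile, this bounds the compressed RMA signal and not the change in transcript. The intervals of 4 reached further, those of AT3G49960, AT1G30870, AT2G37130 and AT1G34510, and all 4 did so on the lower side only. The 19 uncalled genes whose values are not given singly here ranged from -0.23 to 0.09, and the smallest adjusted p among them was 0.348.

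Wild-type arrays spread more than mutant arrays for most of the family. The SD was larger in wild type for 35 of the 43 genes, beside 66.4% of all probe sets, and the median SDs were 0.16 in wild type and 0.09 in actin2-5, beside 0.12 and 0.09 over all probe sets. Wild-type array 2 held the highest wild-type value for 20 of the 43 genes, where it did so for 38.9% of all probe sets. Array 1 held the lowest for 25 of the 43, where it did so for 42.4% of all probe sets. The groups did not overlap in 17 of the 43 genes, or 39.5%, against 19.2% of all probe sets. Of these 7 were higher in actin2-5, or 16.3% of the 43, against 8.35% of all probe sets. The other 10 were lower, or 23.3%, against 10.8%.

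Some members lie next to each other on the chromosome in the TAIR10.1 gene order, and 3 such pairs had both genes measured. AT4G08770 (Prx37) and its direct neighbour AT4G08780 were at 0.43 and -0.19, so their changes differed by 0.62. AT4G08780 averaged 6.22 ± 0.07 in wild type and 6.03 ± 0.03 in actin2-5 (SD, n = 3), with no overlap. It was not called (limma adjusted p = 0.288), and 10.8% of all probe sets were likewise lower without overlap. AT5G64100 and AT5G64120, with 1 gene between them, were at 0.02 and 0.74, which is a difference of -0.72. For each of these pairs the difference between the genes, taken array by array, did not overlap between the genotypes. The exact two-sided permutation test gave p = 0.1 for each, the smallest that 3 against 3 arrays allow, and 0.15 after Benjamini-Hochberg adjustment over the 3 pairs. AT5G19880 and AT5G19890, both dim, were at -0.14 and -0.12, with a difference of -0.01 (exact permutation p = 1). Transcripts of neighbouring copies can be similar, and how far one probe set reads the other gene was not tested.

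The 3 probe sets that list pairs of peroxidase loci were not assigned to a gene. Probe set 253099_s_at, listed for AT4G37520 and AT4G37530, read 9.11, 9.22 and 9.26 in wild type and 9.21, 9.29 and 9.37 in actin2-5, a difference of 0.09 ± 0.09. Probe set 267053_s_at, listed for AT2G38380 and AT2G38390, differed by -0.04 ± 0.10. Probe set 263063_s_at, listed for AT2G18140 and AT2G18150, differed by 0.12 ± 0.17. In all 3 the groups overlapped, and 0 were called by limma or had an unadjusted p under 0.05. The shares over all probe sets were 3.3% and 15.3%.

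Few other genes of peroxidase chemistry had a probe set named here. Of 10 listed NADPH oxidase loci 3 were measured, AT1G19230 at 0.16 ± 0.10, AT4G25090 at -0.15 ± 0.13 and the dim AT4G11230 at -0.18 ± 0.09. Of 18 listed genes of monolignol synthesis, which makes the substrates for lignin, HCT and CCR2 were measured, at -0.11 ± 0.09 and 0.15 ± 0.10. Of 3 listed extensin genes, whose products peroxidases cross-link, HRGP1 was measured at -0.12 ± 0.10, by a probe set of the type that can read related transcripts. In these 3 lists limma called 0 genes, against 3.3% of all probe sets, and 0 had an unadjusted p under 0.05, against 15.3%. Counts over so few genes say little about the lists. The shoot genes PRK, RCA, LHCB4.1 and LHCB4.2, measured of 6 listed, lay between -0.12 and 0.08. Of these 0 were called and 0 had an unadjusted p under 0.05, against the same shares of all probe sets. Listed laccases, Casparian strip genes and other antioxidant enzymes were not analysed here.

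**Figure D5:**
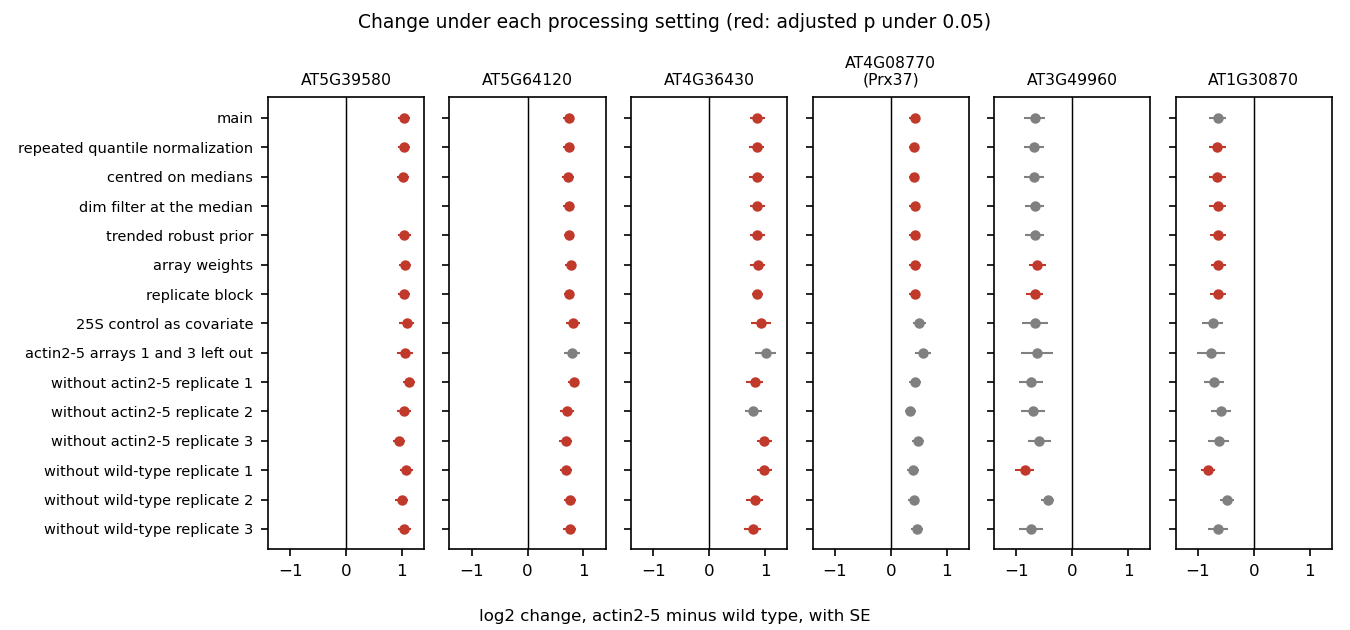
Log2 change with its SE for the 4 called peroxidase genes, AT3G49960 and AT1G30870 under the main test and each alternative, with red for an adjusted p under 0.05. AT5G39580 is red in each setting that tested it, Prx37 is grey in the 8 settings that leave out arrays or use the 25S covariate, and the directions stay the same in the settings shown.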

How the data were processed

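RMA, in the affy package, was the authors' method, per the submitters' processing notes; tool versions were not given in the sources used here. In the deposited table the authors gave log2 values rounded to hundredths, from 3.08 to 14.15. RMA brings arrays close to 1 distribution, with small differences left in their lower quartiles, and compresses weak signals. Leaving out 64 AFFX controls, 22746 probe sets were tested with limma 3.58.1 (R 4.3.3; lmFit, eBayes), which was also tested on 5 simulated data sets. The platform annotation gives 1 gene for 13513 probe sets, several for 503 and none for 8730. Gene identifiers were matched to RefSeq's TAIR10.1 table, and each measured peroxidase gene had 1 probe set. Precision is limited by 3 arrays per group. Array medians were 6.42 to 6.46, correlations between arrays 0.99015 to 0.99796, and no array was a copy of another.

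Members, lists, tests and alternatives were chosen with earlier results of these data known. Every array is given for root hair members, called genes, the 6 brightest and the 4 uncalled with the smallest p. Other members with an unadjusted p under 0.05, a measured neighbour or a peroxidase name in RefSeq were added after their values were seen. From the other lists, called genes and up to 3 with the smallest p are named, and all 4 shoot genes. The alternatives changed the normalization, the centring, the prior, the array weights, a filter on dim probe sets, a block for replicate number, the 25S covariate and the arrays used. Figures were drawn with matplotlib 3.10.9.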

Additional observations from a re-analysis of the deposited data

How the results depend on the processing

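The count of called peroxidase genes, 4 in the main test, was 1 with actin2-5 arrays 1 and 3 left out, and 2 to 6 when single arrays were left out, lowest without actin2-5 replicate 2. By direction it was 4 higher and 1 lower with repeated quantile normalization, centring and the trended robust prior, 3 and 1 with the dim filter, 4 and 2 with array weights and the replicate block, and 3 and 3 without wild-type replicate 1. In that last setting all probe sets split into 479 higher and 417 lower, against 497 and 253. Over all probe sets the main 750 became 283 with the 25S covariate, 103 with actin2-5 arrays 1 and 3 left out and 290 to 896 with single arrays left out. The last 2 settings use fewer arrays, and the covariate uses a residual degree of freedom. Without wild-type replicate 1, also with fewer arrays, the count rose to 896. What moved the counts was not tested. The main test had no block, because the labels do not say that same-numbered arrays are pairs. Such arrays deviated together only weakly (correlations of 0.0619, 0.0866 and 0.0833). With the replicate block 907 probe sets and 6 peroxidase genes were called, AT1G30870 and AT3G49960 (adjusted p = 0.0449 and 0.0303) in addition to the 4. The dim filter left 27 of the 43 genes and removed AT5G39580. Since each gene had 1 probe set, averaging probe sets changed nothing.

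Of 599 values of 42 named genes and shared probe sets under the alternatives, 553 kept their direction and side of the threshold, and 18 turned sign, all of uncalled genes. These were AT3G50990 with repeated quantile normalization (0.0056), 267053_s_at with actin2-5 arrays 1 and 3 left out (0.02) and, with single arrays left out, AT3G01190 (-0.145 to 0.045), AT5G17820 (-0.215 to 0.12), AT5G64100 (-0.032 to 0.093), AT2G41480 (-0.33 to 0.03), AT5G05340 (-0.213 to 0.0067), 263063_s_at (-0.03 to 0.31) and 267053_s_at (-0.12 to 0.055). Signs also turned for 10 of the other 19 genes, and none of those 19 was called in any alternative run.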
